A study of Mus musculus with 48 samples.

Results

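Pro-B cells carrying a high level of the c-Kit receptor were compared with pro-B cells for which the labels give no such gate, in mice of 1 genotype. All 4 libraries came from C57BL/6 mice that were Ikzf1(fl/+) Cd79a(Cre/+), the control genotype of a study of the transcription factor Ikaros. These animals carry 1 floxed and 1 wild-type copy of Ikzf1, the gene for Ikaros, and a Cre recombinase expressed from the B-lineage gene Cd79a, so both groups hold Cre and a floxed allele. There were 2 c-Kit-high pro-B libraries and 2 libraries labelled only pro-B, called total pro-B here. They are 4 of the 30 RNA-sequencing libraries among the 48 samples of the series. Further libraries are cited for levels, 2 of each kind. Some are c-Kit-high and total pro-B cells of Ikzf1(fl/-) Cd79a(Cre/+) mice, in which the floxed copy is the only one left to delete. The others are Ikzf1(fl/+) Cd79a(Cre/+) Rag2(-/-) pro-B controls, called Rag2-null here, and wild-type pre-B cells. The labels do not say how cells were gated, whether they were cultured, or whether animals were pooled.

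Pro-B cells are the bone marrow precursors in which the immunoglobulin heavy chain gene is assembled by V(D)J recombination. They grow in response to interleukin-7 and to stem cell factor, the ligand of c-Kit, and lose c-Kit as they become pre-B cells. A heavy chain that pairs with the surrogate light chain forms the pre-B-cell receptor (pre-BCR), which drives a burst of division before the light chain genes are recombined.

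Levels are RPKM as deposited, which scale each gene's reads by the length of its model in kilobases and by the library's mapped reads in M (mega). Of 21025 gene models, 10884 had at least 1 RPKM in 2 of the 4 libraries and were tested. Of these, 9653 reached 1 RPKM in all 4 libraries, 414 did so in both c-Kit-high libraries and neither total pro-B library, and 303 in both total pro-B libraries and neither c-Kit-high library. Members of gene lists among those 414 and 303 had to differ, so list counts leave them out unless said otherwise. Of the genes named below, Flt3, Cd27, Oas3, Itgam, Klrb1c, Jchain, Hoxa7, H2-Q7, Fcmr, S100a8, S100a9, Mpo and Elane are among the 414. Rasgrp1, Cxcl12, Cdkn2a, Gldc, Asns, Tubb3 and Mmp2 are among the 303. The p-values and lack of overlap of these genes are descriptions that support nothing. The implied depth was 8.87 and 2.31 M reads in the c-Kit-high libraries, against 11.7 and 10.4 M in the total pro-B libraries. At 1 RPKM a gene of 2 kb thus had about 17.7 and 4.63 reads in the c-Kit-high libraries, against 23.4 and 20.8 in the total pro-B libraries, and low values of the second c-Kit-high library are the least precise. Across genes, which are not independent replicates, Pearson's r of log2(RPKM + 1) was 0.967 within the c-Kit-high pair and 0.991 within the total pro-B pair. The library numbers of the total pro-B controls are consecutive with those of the deleted total pro-B libraries and of 1 deleted c-Kit-high library, and those of the c-Kit-high controls lie apart from them. Preparation and library-number run cannot be told apart in these controls.

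Differences are given as c-Kit-high minus total pro-B on log2(RPKM + 1), so a positive value means a higher level in c-Kit-high cells and 1 unit is 2-fold. A gene was called at a limma adjusted p under 0.05. Under this rule 5909 of the 10884 genes were called, which is 54.3% of them. In c-Kit-high cells 3216 genes (29.5%) were higher and 2693 (24.7%) were lower. At 2-fold or more, 2151 genes (19.8%) were called, 1261 (11.6%) higher and 890 (8.18%) lower. The median log2 difference of all genes was 0.07, and the 2 c-Kit-high libraries did not overlap the 2 total pro-B libraries in 78.3% of genes. With calls this frequent, a list's count is read against these shares. Quantile normalization turned the balance to 2747 higher and 2978 lower.

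**Figure D1:**
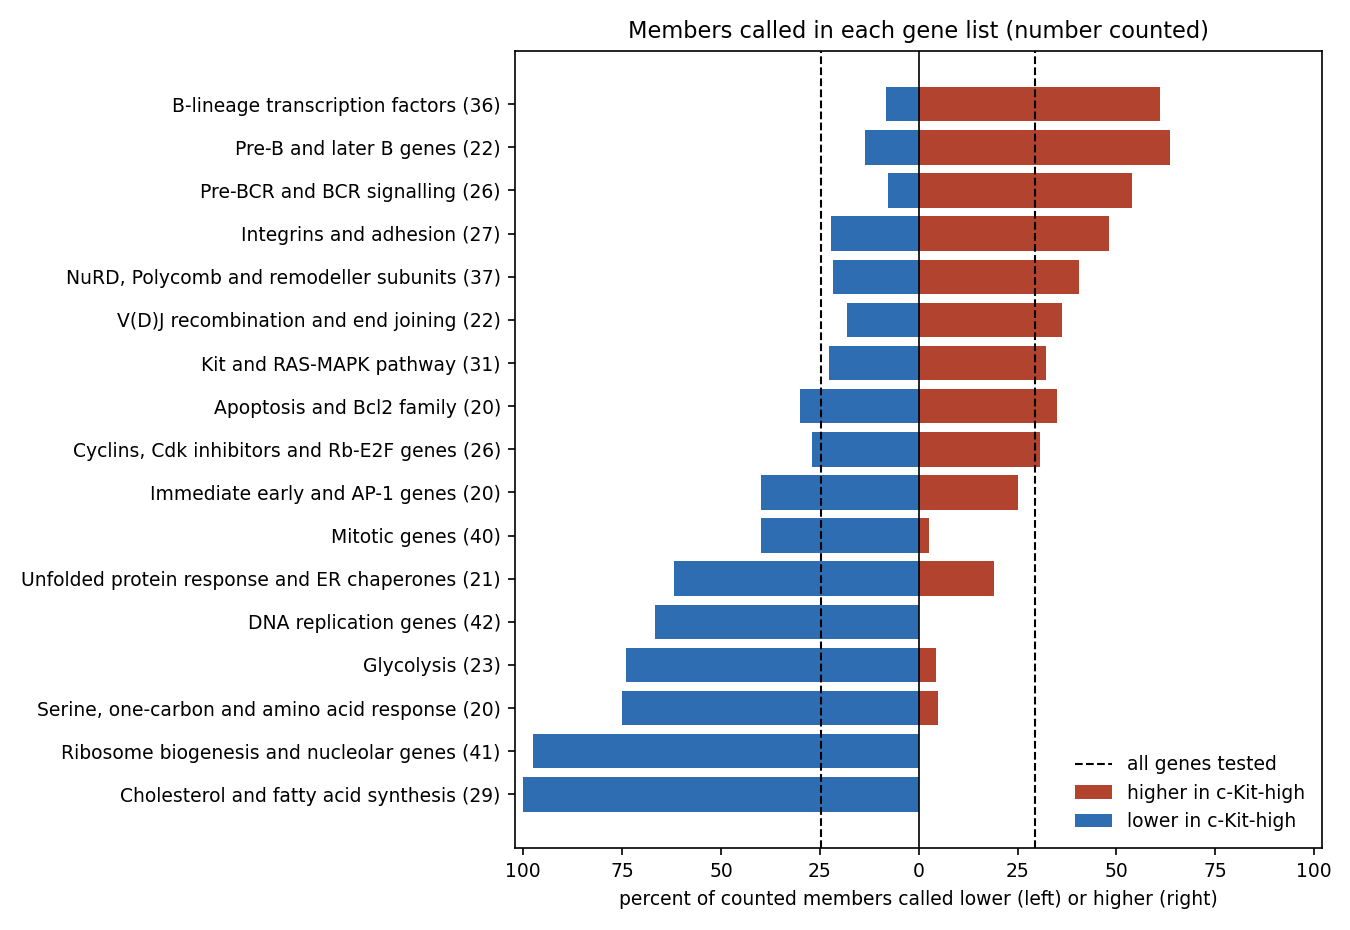
Percent of members called higher (right) or lower (left) in c-Kit-high than in total pro-B control cells, for 17 gene lists with at least 20 members, the number in brackets; members that passed the filter through 1 group alone are left out, as is the histone list. Dashed lines mark the shares over all genes, 24.7% lower and 29.5% higher. B-lineage transcription factors lie at the top, and cholesterol and ribosome biogenesis genes, nearly all lower, at the bottom.

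Kit, which encodes c-Kit, was the sorting criterion and is given as a check of the labels only. Its level was 34.2 and 39.2 RPKM in c-Kit-high libraries and 20.9 and 18.7 RPKM in total pro-B libraries, and 3.00 and 2.67 RPKM in wild-type pre-B cells. The c-Kit-high libraries were thus higher, and the total pro-B libraries still held Kit RNA well above the pre-B level. Ikzf1 was at 101 and 124 RPKM in c-Kit-high libraries and 59.2 and 56.4 RPKM in total pro-B libraries, a log2 difference of 0.94 ± 0.14 (SE; adjusted p = 0.000179). In these bulk samples fewer cells of a type and less RNA per cell cannot be told apart, here or for any gene below.

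Among receptors for the growth factors of early progenitors, more were higher than lower in c-Kit-high cells. Il7r, the interleukin-7 receptor chain on which mouse pro-B cells depend, was at 71.2 and 97.2 RPKM in c-Kit-high libraries, against 8.49 and 7.93 RPKM in total pro-B libraries. That was a log2 difference of 3.19 ± 0.34 (SE; adjusted p = 4.32e-05). Flt3, the FLT3 ligand receptor of lymphoid and myeloid progenitors, was at 6.05 and 2.58 RPKM in c-Kit-high libraries and 0.0940 and 0.239 RPKM in total pro-B libraries, a log2 difference of 2.11 ± 0.26 (SE; adjusted p = 4.17e-05). Il7r did not overlap between groups, as was so for 78.3% of all genes. Flt3, under the 1 RPKM minimum in total pro-B libraries, is a description only. Il7r in pre-B libraries was at 99.0 and 78.3 RPKM and in Rag2-null pro-B libraries at 11.8 and 9.58 RPKM. Csf2ra and Il3ra, chains of the GM-CSF and interleukin-3 receptors, had log2 differences of 1.75 and 1.52. Of 11 counted receptors without Kit, 6 were called higher and 1 lower, with a median log2 difference of 0.49; the lower one was Csf2rb, the shared beta chain, at -0.81.

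The pathway downstream of these receptors moved in both directions. Of 31 Kit and RAS-MAPK pathway genes, 10 were higher and 7 lower, close to the shares of all genes. The adaptors Gab1 and Gab2 were higher. Gab1 was at 13.4 and 14.4 RPKM in c-Kit-high libraries and 2.15 and 2.65 RPKM in total pro-B libraries, a log2 difference of 2.13 ± 0.27 (SE; adjusted p = 4.78e-05). Dusp5, a phosphatase of ERK that is induced by it, and Etv5, an ETS factor induced by the same pathway, were lower, with log2 differences of -2.10 and -1.34. Several feedback genes that STAT5 induces after cytokine signals were lower. Socs2, a suppressor of cytokine signalling, was at 25.9 and 16.3 RPKM in c-Kit-high libraries, against 86.3 and 82.1 RPKM in total pro-B libraries, a log2 difference of -1.98 ± 0.16 (SE; adjusted p = 2.19e-06). Socs3 and Cish, of the same family, were lower by log2 differences of -1.84 and -1.80, while the receptor Il7r was higher. Over the STAT5 list 6 of 18 members were higher and 7 lower. Il2ra, the interleukin-2 receptor chain that marks pre-B cells, missed the expression minimum, at 1.35 and 0.585 RPKM in c-Kit-high libraries and 0.507 and 0.485 RPKM in total pro-B libraries, beside 93.8 and 90.9 RPKM in pre-B cells.

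The recombination enzymes showed some of the widest separations among B-lineage genes. Rag1, a subunit of the recombinase that cuts antigen receptor genes, was at 283 and 361 RPKM in c-Kit-high libraries, against 20.2 and 14.8 RPKM in total pro-B libraries, a log2 difference of 4.13 ± 0.51 (SE; adjusted p = 0.000216). Rag2, its partner, was at 40.4 and 68.9 RPKM in c-Kit-high libraries and 6.14 and 4.40 RPKM in total pro-B libraries, a log2 difference of 3.11 ± 0.29 (SE; adjusted p = 6.86e-06). Dntt, the terminal transferase that adds bases at heavy chain junctions, was at 1138 and 1383 RPKM in c-Kit-high libraries and 189.7 and 165 RPKM in total pro-B libraries, a log2 difference of 2.82 ± 0.52 (SE; adjusted p = 0.00192). For all 3 genes both c-Kit-high libraries lay several-fold above both total pro-B libraries. Pre-B libraries, in which light chain recombination starts, had 476 and 433 RPKM of Rag1 and only 7.98 and 5.73 RPKM of Dntt. The rest of the machinery was mixed: of 22 V(D)J and end-joining gene rows, 8 were higher and 4 lower, with a median of 0.19. The lower count was 2 without c-Kit-high replicate 2 or either total pro-B library, and the median 0.07 without c-Kit-high replicate 1. Lig4, the ligase of end joining, was higher by a log2 difference of 1.57 ± 0.23 (SE). The Ku subunits moved apart, with Xrcc6 (Ku70) at 1.49 and Xrcc5 (Ku80) at -1.18.

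**Figure D2:**
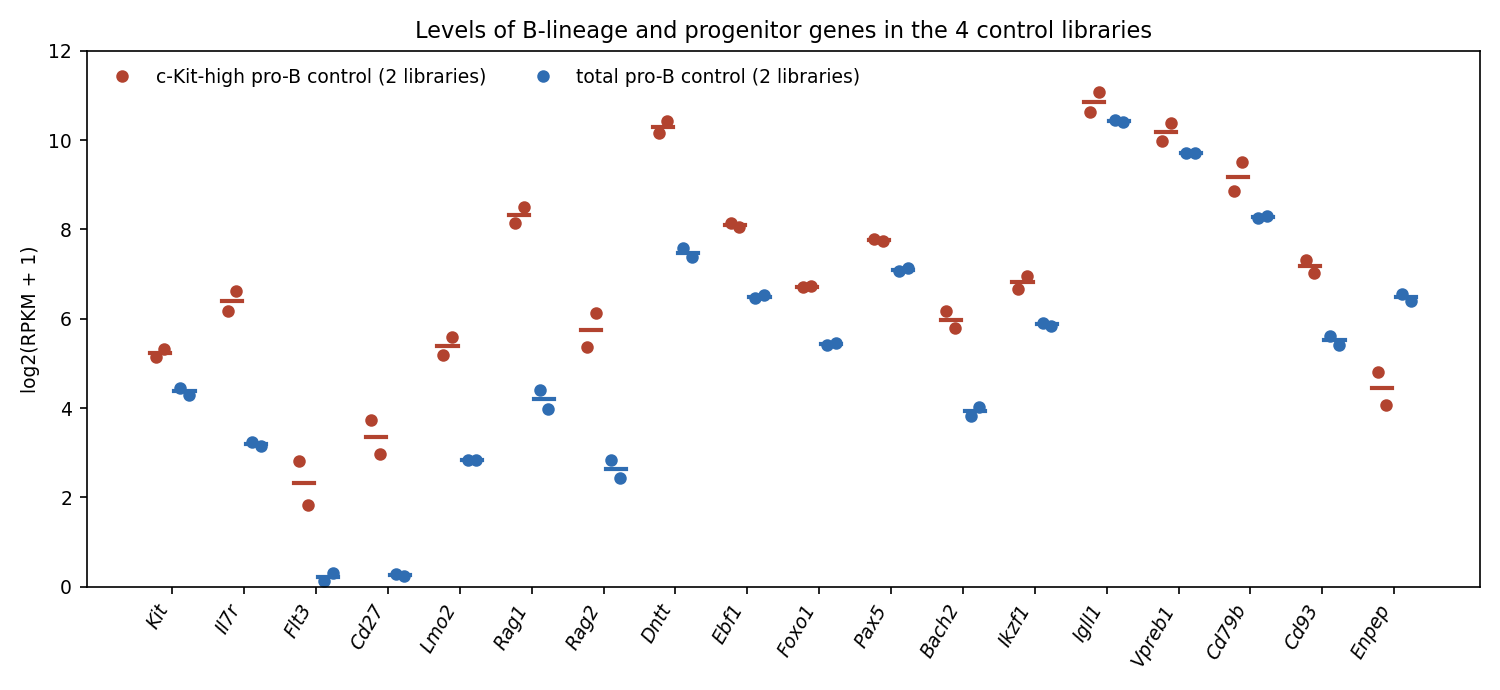
log2(RPKM + 1) of 18 progenitor and B-lineage genes in the 2 c-Kit-high and the 2 total pro-B control libraries; points are libraries and short lines their means. The groups are far apart for Il7r, Rag1, Rag2, Dntt and Cd27, close for Igll1 and Vpreb1, and Enpep alone is lower in c-Kit-high cells.

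The surrogate light chain genes Igll1 and Vpreb1 lay closer together. Igll1, which encodes lambda5, was at 1584 and 2151 RPKM in c-Kit-high libraries and 1405 and 1361 RPKM in total pro-B libraries, a log2 difference of 0.42 ± 0.19 (SE; adjusted p = 0.0837), which did not pass. Vpreb1, its partner chain, was at 1015 and 1334 RPKM in c-Kit-high libraries and 842 and 836 RPKM in total pro-B libraries, a log2 difference of 0.47 ± 0.18 (SE; adjusted p = 0.0408), and its adjusted p reached 0.288 when 1 library was left out. Vpreb2 was lower by a log2 difference of -0.60 ± 0.18 (SE), a call lost when c-Kit-high replicate 1 or total pro-B replicate 2 was left out and after quantile normalization. Both paralogs are near copies, so reads may be split between them. Cd79a, the receptor chain whose locus drives Cre, had a log2 difference of 0.35 ± 0.16 (SE; adjusted p = 0.0849) and did not pass, at 307 and 348 RPKM in c-Kit-high libraries and 242 and 273 RPKM in total pro-B libraries. Its partner Cd79b was higher, at 465 and 726 RPKM in c-Kit-high libraries and 306 and 313 RPKM in total pro-B libraries, a log2 difference of 0.91 ± 0.19 (SE; adjusted p = 0.00185). Of the 6 genes of the surrogate light chain and pre-BCR complex, 3 were higher and 1 lower, with a median log2 difference of 0.44. Without c-Kit-high replicate 1 the list had 4 higher and a median of 0.65, and after quantile normalization 5 higher and a median of 0.75. In pre-B libraries the surrogate chain was nearly off, at 18.5 and 22.6 RPKM of Igll1.

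Transcription factors of the B lineage were mostly higher in c-Kit-high cells. Of 36, 22 were higher and 3 lower, with a median log2 difference of 0.66. The lower count was 1 without c-Kit-high replicate 2. Ebf1, which specifies the B lineage, was at 281 and 264 RPKM in c-Kit-high libraries, against 86.8 and 91.3 RPKM in total pro-B libraries, a log2 difference of 1.60 ± 0.17 (SE; adjusted p = 1.25e-05). Foxo1, an activator of the Rag genes and of Il7r, was at 103 and 105 RPKM in c-Kit-high libraries and 41.4 and 43.0 RPKM in total pro-B libraries, a log2 difference of 1.28 ± 0.15 (SE; adjusted p = 2.87e-05). Pax5, which commits cells to the lineage, differed less, at 219 and 214 RPKM in c-Kit-high libraries and 133 and 139 RPKM in total pro-B libraries, a log2 difference of 0.66 ± 0.15 (SE; adjusted p = 0.00256). None of the 3 overlapped between groups, which held for 78.3% of all genes. The repressors Bcl6 and Bach2, which restrain division and support the pre-BCR checkpoint, had the largest differences upward, 2.50 ± 0.28 and 2.05 ± 0.20 (SE). Bach2 was at 70.7 and 54.4 RPKM in c-Kit-high libraries and 13.3 and 15.3 RPKM in total pro-B libraries. The growth regulator Myc went the other way, at 115 and 85.9 RPKM in c-Kit-high libraries and 259.7 and 273 RPKM in total pro-B libraries, a log2 difference of -1.42 ± 0.17 (SE; adjusted p = 3.33e-05). Mycn fell by 2.04 on the log2 scale, a call that was lost without c-Kit-high replicate 2 and without either total pro-B library.

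Genes of pre-BCR and B-cell receptor signalling, inhibitors included, also lay mainly on the higher side. Of 26 counted members, 14 were higher and 2 lower. The adaptor Dok3 was at 163 and 204 RPKM in c-Kit-high libraries and 43.3 and 44.7 RPKM in total pro-B libraries, a log2 difference of 2.02 ± 0.18 (SE; adjusted p = 3.97e-06). Cd72, an inhibitory co-receptor of B cells, was at 72.7 and 104 RPKM in c-Kit-high libraries and 12.4 and 15.3 RPKM in total pro-B libraries, a log2 difference of 2.58 ± 0.23 (SE; adjusted p = 6.29e-06). Blnk, the linker between the kinase Syk and its effectors, and Syk itself were higher by 1.32 ± 0.13 and 1.20 ± 0.12 (SE). Rasgrp1, a RAS activator that passed the filter through the total pro-B libraries alone, had a log2 difference of -1.04.

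Of the surface antigens by which early B-cell stages are told apart, 8 of 14 counted were higher and 1 lower. Cd93, the AA4.1 antigen of immature B cells, was at 159.5 and 129 RPKM in c-Kit-high libraries and 47.8 and 41.9 RPKM in total pro-B libraries, a log2 difference of 1.66 ± 0.14 (SE; adjusted p = 2.81e-06). The 1 lower member was Enpep, the BP-1 antigen acquired by large pro-B and pre-B cells, at 27.2 and 15.9 RPKM in c-Kit-high libraries and 93.4 and 83.9 RPKM in total pro-B libraries, a log2 difference of -2.04 ± 0.36 (SE; adjusted p = 0.000969). Enpep was at 137 and 142 RPKM in Rag2-null pro-B libraries.

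Receptors for homing differed in both directions. S1pr1, the sphingosine-1-phosphate receptor for egress into blood, was at 14.6 and 20.4 RPKM in c-Kit-high libraries and 1.43 and 1.48 RPKM in total pro-B libraries, a log2 difference of 2.89 ± 0.25 (SE; adjusted p = 3.80e-06). Cxcr5, the follicle-homing receptor, was lower, at 7.33 and 4.63 RPKM in c-Kit-high libraries and 27.6 and 31.0 RPKM in total pro-B libraries, a log2 difference of -2.14 ± 0.41 (SE; adjusted p = 0.00158). The integrin chain Itgam, also expressed by neutrophils, whose markers were higher in the same libraries as described further on, was at 15.6 and 16.6 RPKM in c-Kit-high libraries and 0.679 and 0.581 RPKM in total pro-B libraries. The part of neutrophil RNA in its difference was not tested. Among integrin and adhesion genes 13 of 27 counted members were higher and 6 lower. Itga4, the alpha chain of VLA-4 that binds stromal VCAM-1, was at 57.5 and 64.6 RPKM in c-Kit-high libraries and 16.2 and 14.2 RPKM in total pro-B libraries, a log2 difference of 1.94 ± 0.19 (SE; adjusted p = 9.17e-06).

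Genes that B cells turn on later were higher more often than lower, at 14 and 3 of 22 counted members. Over all 25 tested members 17 were higher, a count of 11 when c-Kit-high replicate 2, total pro-B replicate 1 or total pro-B replicate 2 was left out. Fcmr, the IgM Fc receptor, passed the filter through the c-Kit-high libraries alone, at 3.33 and 3.75 RPKM there and 0.288 and 0 RPKM in total pro-B libraries, beside 103 and 108 RPKM in pre-B cells.

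Genes of stem cells and uncommitted progenitors were called higher more often than lower. Of 15 counted gene rows, 7 were higher and 1 lower. Cd27, a TNF receptor family member of multipotent progenitors, was at 12.4 and 6.83 RPKM in c-Kit-high libraries and 0.219 and 0.185 RPKM in total pro-B libraries, a log2 difference of 3.09 ± 0.29 (SE; adjusted p = 6.33e-06). Lmo2, a transcriptional adaptor of blood progenitors, was at 35.5 and 47.0 RPKM in c-Kit-high libraries and 6.18 and 6.11 RPKM in total pro-B libraries, a log2 difference of 2.55 ± 0.24 (SE; adjusted p = 7.49e-06). Satb1, a chromatin organizer of lymphoid progenitors, was higher by 2.32 ± 0.29 (SE). Lmo2 and Satb1 did not overlap between groups, like 78.3% of all genes. Hoxa7, a homeobox gene, was listed at 0 in both total pro-B libraries, and at 4.00 and 5.76 RPKM in c-Kit-high libraries. Cd34, the sialomucin of stem cells, had 3.92 and 0.493 RPKM in c-Kit-high libraries, was listed at 0 in both total pro-B libraries, and missed the expression minimum.

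Notch signalling steers lymphoid progenitors to the T lineage, and its receptors and targets were higher in c-Kit-high cells: 7 of 8 counted members were called higher and 0 lower, and limma's unadjusted p under 0.05 gave 7 higher and 0 lower. Notch1 was at 40.2 and 35.1 RPKM in c-Kit-high libraries and 14.2 and 15.1 RPKM in total pro-B libraries, a log2 difference of 1.30 ± 0.19 (SE; adjusted p = 0.000131). The target Hes1, a repressor, was at 88.6 and 128 RPKM in c-Kit-high libraries and 38.5 and 38.3 RPKM in total pro-B libraries, a log2 difference of 1.45 ± 0.20 (SE; adjusted p = 8.65e-05). Heyl, of the same family, was at 26.4 and 28.2 RPKM in c-Kit-high libraries and 2.80 and 1.92 RPKM in total pro-B libraries, a log2 difference of 3.09 ± 0.68 (SE; adjusted p = 0.00425). The groups did not overlap for these genes, nor did they for 78.3% of all genes. Tcf7, the T-lineage factor TCF1, was higher by 2.67 ± 0.47 (SE), at 23.1 and 27.9 RPKM in c-Kit-high libraries and 2.25 and 4.29 RPKM in total pro-B libraries. The T-cell genes Cd3e and Cd8b1 were listed at 0 in all 4 libraries, but other T-cell and NK genes were not. Of 29 gene rows of T, NK and innate lymphoid markers, 6 and 16 were at 0 in c-Kit-high libraries, against 15 and 13 in total pro-B libraries.

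Interferon-stimulated genes, induced in most cells by type I interferon, were mostly higher. Of 30 genes, 29 were tested, of which 10 passed the filter through the c-Kit-high libraries alone. Of the other 19, 14 were called higher and 0 lower, with a median log2 difference of 1.47. At an unadjusted p under 0.05, limma's test gave 14 higher and 0 lower. Irf7, the factor that amplifies the response, was at 29.9 and 20.7 RPKM in c-Kit-high libraries, against 1.69 and 0.903 RPKM in total pro-B libraries, a log2 difference of 3.51 ± 0.32 (SE; adjusted p = 6.02e-06). Oas3, an antiviral oligoadenylate synthetase, was at 15.5 and 7.67 RPKM in c-Kit-high libraries and 0.274 and 0.434 RPKM in total pro-B libraries, a log2 difference of 3.15 ± 0.27 (SE; adjusted p = 2.89e-06). For Irf7 the c-Kit-high pair lay wholly above the total pro-B pair, and 78.3% of all genes had no overlap of the pairs. Oas3 passed the filter through the c-Kit-high libraries alone. The summed level of all 30 genes was 1791 and 1808 RPKM in c-Kit-high libraries and 1200.0 and 1198 RPKM in total pro-B libraries.

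The interferon-stimulated response element is the site at which interferon-activated transcription factors bind, and its core was taken as 2 copies of GAAA with any 2 bases between them. RefSeq promoter windows of GRCm38.p6, from 250 bases before to 50 after the start, were searched for it on both strands (TTTC copies on the other). It was present in 256 of 8724 windows, or 2.93%, and in 7 of the 12 windows found for the 14 counted genes called higher. Over all 24 genes called higher, of which 10 had passed through the c-Kit-high libraries alone, it was in 11 of 19 windows. A match describes the letters of a window and is not a shown binding site. Windows of the 4 of these genes with the largest absolute log2 differences are given 5′ to 3′ on the gene's strand, with the matches in capitals. The build differs from the mm9 build of the deposited values.
Oas3 (chr5:120777610-120777909, minus strand): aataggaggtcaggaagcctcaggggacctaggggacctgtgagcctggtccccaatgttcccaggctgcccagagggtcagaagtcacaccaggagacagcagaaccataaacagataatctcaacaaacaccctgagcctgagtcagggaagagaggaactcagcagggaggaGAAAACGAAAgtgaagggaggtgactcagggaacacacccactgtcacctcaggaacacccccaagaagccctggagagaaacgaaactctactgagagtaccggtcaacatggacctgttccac
Ddx58 (chr4:40239776-40240075, minus strand): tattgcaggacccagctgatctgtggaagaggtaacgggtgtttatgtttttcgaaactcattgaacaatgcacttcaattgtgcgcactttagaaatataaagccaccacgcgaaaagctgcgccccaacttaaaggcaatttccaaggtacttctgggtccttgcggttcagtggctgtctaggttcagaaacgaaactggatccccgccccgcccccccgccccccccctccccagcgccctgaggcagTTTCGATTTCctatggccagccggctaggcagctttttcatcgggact
Isg15 (chr4:156200769-156201068, minus strand): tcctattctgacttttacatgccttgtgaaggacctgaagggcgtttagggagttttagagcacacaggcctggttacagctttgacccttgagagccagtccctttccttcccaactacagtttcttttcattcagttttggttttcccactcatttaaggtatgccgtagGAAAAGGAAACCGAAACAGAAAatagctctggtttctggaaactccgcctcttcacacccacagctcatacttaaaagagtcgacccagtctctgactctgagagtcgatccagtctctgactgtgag
Trim30a (chr7:104465144-104465443, minus strand): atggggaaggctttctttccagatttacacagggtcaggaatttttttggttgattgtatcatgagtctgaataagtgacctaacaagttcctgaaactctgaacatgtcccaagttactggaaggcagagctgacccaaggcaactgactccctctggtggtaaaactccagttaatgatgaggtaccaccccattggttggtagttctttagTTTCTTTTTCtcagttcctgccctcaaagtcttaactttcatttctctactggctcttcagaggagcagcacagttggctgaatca
In the Isg15 window 3 overlapping matches form 1 run, and the other windows hold 1 match each. Ddx58, the RNA sensor RIG-I, was at 10.9 and 11.3 RPKM in c-Kit-high libraries and 1.88 and 2.09 RPKM in total pro-B libraries, a log2 difference of 2.02 ± 0.14 (SE; adjusted p = 7.05e-07). Isg15, a ubiquitin-like modifier, was at 36.4 and 12.6 RPKM in c-Kit-high libraries and 5.59 and 3.87 RPKM in total pro-B libraries, a log2 difference of 1.99 ± 0.41 (SE; adjusted p = 0.00229). Trim30a, a tripartite motif protein, was at 32.1 and 31.2 RPKM in c-Kit-high libraries and 8.26 and 9.99 RPKM in total pro-B libraries, a log2 difference of 1.69 ± 0.16 (SE; adjusted p = 6.33e-06). The number of matches and the size of the difference were not compared over so few genes.

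Genes of biosynthesis were lower in c-Kit-high cells, and most uniformly so those of sterol and fatty acid synthesis. All 29 counted members were called lower, with a median log2 difference of -1.79, also when any 1 of the 4 libraries was left out. Scd1, the desaturase that makes oleate, was at 6.64 and 7.14 RPKM in c-Kit-high libraries, against 146 and 144 RPKM in total pro-B libraries, a log2 difference of -4.21 ± 0.13 (SE; adjusted p = 1.15e-09). Lss, which makes lanosterol, was at 4.40 and 3.60 RPKM in c-Kit-high libraries and 52.7 and 46.4 RPKM in total pro-B libraries, a log2 difference of -3.34 ± 0.19 (SE; adjusted p = 1.82e-07). For both genes the replicates of each group lay close together and far from the other group. The summed level of the list was 641 and 594 RPKM in c-Kit-high libraries and 2305 and 2291 RPKM in total pro-B libraries. A core of the sterol regulatory element, TCACNCCAC (GTGGNGTGA on the other strand), was in 1.03% of the 8724 windows and in none of the 21 found for this list, which says only that these letters were not in them.

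Glycolysis showed the same direction: 17 of 23 members were lower and 1 higher, with a median of -1.49. Aldoa, an aldolase, was at 81.5 and 96.4 RPKM in c-Kit-high libraries and 612 and 628 RPKM in total pro-B libraries, a log2 difference of -2.79 ± 0.12 (SE; adjusted p = 3.08e-08). Ldha, the lactate dehydrogenase chain, was at 151 and 176 RPKM in c-Kit-high libraries and 837 and 822 RPKM in total pro-B libraries, a log2 difference of -2.34 ± 0.13 (SE; adjusted p = 1.34e-07). Slc16a3, a lactate exporter, was lower by a log2 difference of -2.70 ± 0.65 (SE). Gapdh, another enzyme of the pathway, was listed at 1.41 and 0 RPKM in c-Kit-high libraries and 1.68 and 1.42 RPKM in total pro-B libraries. Gapdh has many near-identical copies in the genome, so its value and those of other genes with such copies are uncertain.

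Ribosome production genes were lower across nearly the whole list. Of 41 ribosome biogenesis genes, 40 were called lower and 0 higher, with a median of -1.31. Limma's unadjusted p under 0.05 gave the same counts, 40 lower and 0 higher, and the exception was Fbl, the rRNA methyltransferase fibrillarin, at 0.10 ± 0.19 (SE). Ncl, the nucleolar protein nucleolin, was at 114 and 114 RPKM in c-Kit-high libraries and 412 and 409 RPKM in total pro-B libraries, a log2 difference of -1.84 ± 0.22 (SE; adjusted p = 3.43e-05). Odc1 and Srm, which make the polyamines putrescine and spermidine, were lower by a log2 difference of -2.11 ± 0.15 and -2.08 ± 0.23 (SE). The E-box CACGTG, the sequence to which Myc binds and the same on both strands, was in 10.7% of the 8724 windows and in 6 of the 34 found for the genes called lower. Amino acid supply genes moved likewise, with 15 of 20 counted serine, one-carbon and amino acid response genes lower and 1 higher. Chac1, a glutathione-degrading enzyme induced by the amino acid response, was at 0.723 and 1.38 RPKM in c-Kit-high libraries and 6.33 and 7.84 RPKM in total pro-B libraries, a log2 difference of -1.99 ± 0.20 (SE; adjusted p = 1.11e-05). Gldc, of the glycine cleavage system, was at 0.0366 and 0 RPKM in c-Kit-high libraries and 61.9 and 71.5 RPKM in total pro-B libraries, which is near absence against a clear level. Asns, asparagine synthetase, was at 0.957 and 0 RPKM in c-Kit-high libraries and 19.4 and 19.5 RPKM in total pro-B libraries.

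Protein folding genes were also mostly lower. Of 21 unfolded protein response and chaperone genes of the endoplasmic reticulum, 13 were lower and 4 higher. Xbp1, the factor of that response, was at 53.1 and 50.8 RPKM in c-Kit-high libraries and 145 and 137 RPKM in total pro-B libraries, a log2 difference of -1.43 ± 0.13 (SE; adjusted p = 4.88e-06), whereas Ern1, the kinase and nuclease that splices its RNA, was higher by 1.02 ± 0.20 (SE). Of 12 counted heat shock genes, 8 were lower and 0 higher, and limma's unadjusted p under 0.05 gave 9 lower and 1 higher. Hsp90ab1, an HSP90 chaperone, was at 1222 and 1080.4 RPKM in c-Kit-high libraries and 3005 and 2914 RPKM in total pro-B libraries, a log2 difference of -1.36 ± 0.14 (SE; adjusted p = 1.07e-05).

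**Figure D3:**
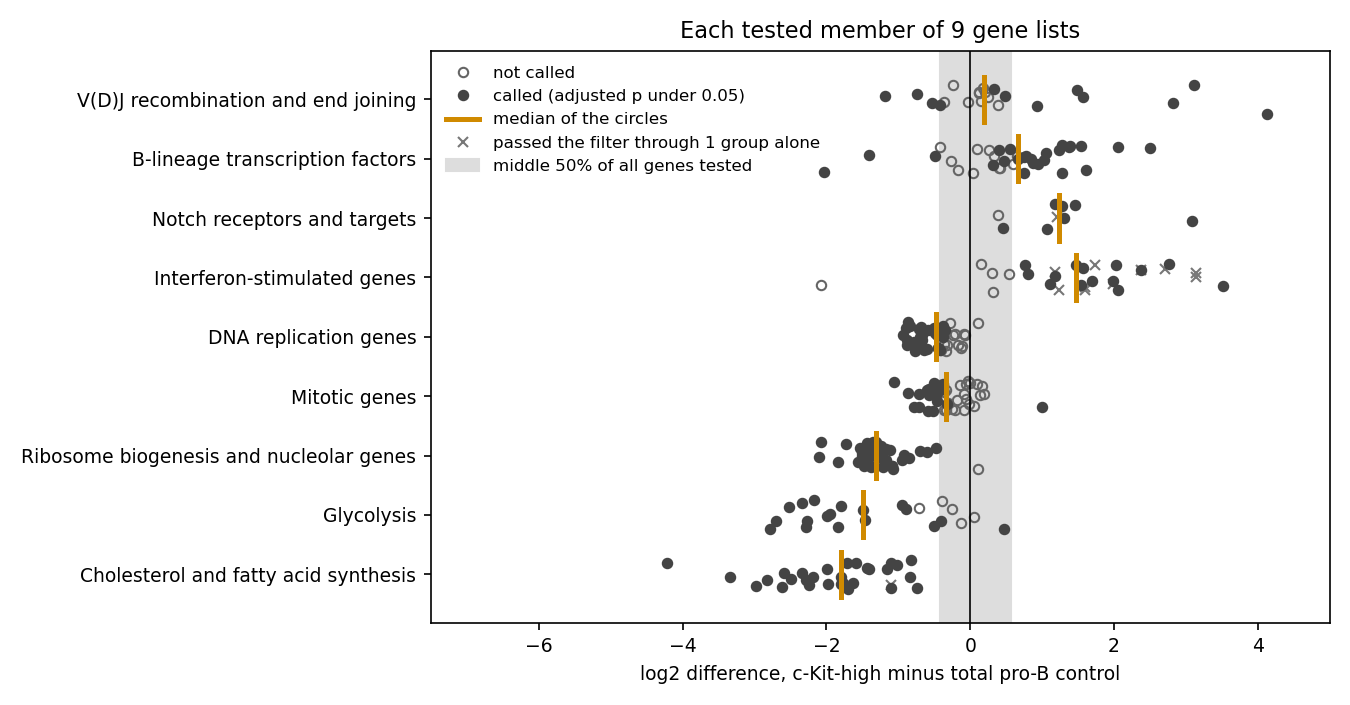
The log2 difference, c-Kit-high minus total pro-B control, of each tested member of 9 gene lists; filled circles were called, open ones were not, crosses passed the filter through 1 group alone, bars are medians of the circles, and the grey band holds the middle 50% of all genes. Ribosome biogenesis, glycolysis and cholesterol genes lie left of the band, interferon genes right of it, and mitotic and DNA replication genes at its left edge.

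The cell cycle machinery differed by less. Of 42 DNA replication genes, 28 were lower and 0 higher, with a median log2 difference of -0.48. At an unadjusted p under 0.05, limma's test gave 31 lower and 0 higher. Mcm10, a replication initiation factor, was at 23.5 and 22.6 RPKM in c-Kit-high libraries and 44.2 and 45.8 RPKM in total pro-B libraries, a log2 difference of -0.93 ± 0.18 (SE; adjusted p = 0.000926). Of 40 mitotic genes, 16 were lower and 1 higher, a count of 9 lower without c-Kit-high replicate 2 or without total pro-B replicate 1. Plk1, the polo-like kinase of mitotic entry, was at 80.4 and 55.3 RPKM in c-Kit-high libraries and 133 and 113 RPKM in total pro-B libraries, a log2 difference of -0.87 ± 0.17 (SE; adjusted p = 0.000812). Mki67, the marker of cycling cells, was at 172 and 136 RPKM in c-Kit-high libraries and 148 and 137 RPKM in total pro-B libraries, a log2 difference of 0.10 ± 0.39 (SE; adjusted p = 0.844), which did not pass. Cdc25b, an activating phosphatase of the same step, was the 1 higher mitotic gene, by 1.00 ± 0.22 (SE).

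Regulators of the cycle moved in both directions. The anti-proliferative genes Btg1 and Btg2 were higher, Btg2 at 98.3 and 129 RPKM in c-Kit-high libraries and 19.3 and 19.5 RPKM in total pro-B libraries, a log2 difference of 2.48 ± 0.23 (SE; adjusted p = 8.47e-06). Ccnd1, a G1 cyclin, was lower, at 4.82 and 5.01 RPKM in c-Kit-high libraries and 15.4 and 17.6 RPKM in total pro-B libraries, a log2 difference of -1.56 ± 0.16 (SE; adjusted p = 1.20e-05). Ccnd3, the D cyclin on which pro-B cells rely most, was at 511 and 424 RPKM in c-Kit-high libraries and 505 and 503 RPKM in total pro-B libraries, a log2 difference of -0.11 ± 0.16 (SE; adjusted p = 0.568), with no call. Ccnd2 was lower by a log2 difference of -0.72 ± 0.17 (SE). Cdkn2a, which encodes the inhibitor p16 and the p53 activator ARF, was at 0.535 and 0 RPKM in c-Kit-high libraries and 8.95 and 13.3 RPKM in total pro-B libraries, a log2 difference of -3.27 ± 0.63 (SE; adjusted p = 0.00184). Cdkn2a passed the filter through the total pro-B libraries alone and is a description only. Of other inhibitors, Cdkn1b and Cdkn1c were called higher, with log2 differences of 1.71 and 0.97, and Cdkn1a and Cdkn2c were not called. Over the whole list 8 of 26 counted members were higher and 7 lower.

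Genes of cell death were balanced, at 7 higher and 6 lower of 20 counted. Bmf, a death-promoting BH3-only protein, was at 19.9 and 30.1 RPKM in c-Kit-high libraries and 1.88 and 2.32 RPKM in total pro-B libraries, a log2 difference of 3.04 ± 0.45 (SE; adjusted p = 0.000385). Bax, an effector of the mitochondrial pathway, was lower by a log2 difference of -1.29 ± 0.23 (SE). Over all 21 tested members 7 were lower, and 3 without c-Kit-high replicate 2. Immediate early genes, which respond within minutes to handling and stimulation, were also mixed, with 5 higher and 8 lower of 20. The higher count was 3 without c-Kit-high replicate 2 or total pro-B replicate 1, and the lower count 4 without c-Kit-high replicate 1 or total pro-B replicate 2 and 5 without total pro-B replicate 1. Fos, a component of the AP-1 factor, was at 1.76 and 8.45 RPKM in c-Kit-high libraries and 18.8 and 31.5 RPKM in total pro-B libraries, a log2 difference of -2.31 ± 0.80 (SE; adjusted p = 0.0374), a call lost without c-Kit-high replicate 1 and without either total pro-B library. Subunits of the NuRD, Polycomb and remodelling complexes, among them partners of Ikaros, were 15 higher and 8 lower of 37 counted. Over all 38 of them 16 were higher, but 8 without total pro-B replicate 1 and 10 without total pro-B replicate 2, and 8 were lower, but 5 without c-Kit-high replicate 2. Smarca4, the remodeller ATPase BRG1, was at 736 and 772 RPKM in c-Kit-high libraries and 276 and 274 RPKM in total pro-B libraries, a log2 difference of 1.45 ± 0.18 (SE; adjusted p = 4.07e-05).

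Markers of other cell types differed between the preparations. Of 21 neutrophil and granule genes, the 14 tested passed through the c-Kit-high libraries alone. The whole list summed to 743 and 125 RPKM in c-Kit-high libraries and 0.992 and 1.54 RPKM in total pro-B libraries. S100a9, a calcium-binding protein of neutrophils, was at 205 and 29.1 RPKM in c-Kit-high libraries and listed at 0 in both total pro-B libraries, and S100a8, its partner, was at 134 and 18.6 RPKM and likewise listed at 0. In wild-type pre-B libraries S100a9 was at 2509.5 and 2569 RPKM. Mpo and Elane, granule enzymes of immature neutrophils, were at 20.1 and 10.1 RPKM and 15.1 and 7.48 RPKM in c-Kit-high libraries and listed at 0 in both total pro-B libraries. Neutrophil RNA was thus measured in both c-Kit-high libraries, with the larger sum in the first. Its part in the other differences was not tested. The second c-Kit-high library still held 125 RPKM of the list, so leaving out the first would not remove neutrophil RNA.

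Lists of other lineages differed in both directions. The monocyte, macrophage and dendritic list summed to 673 and 671 RPKM in c-Kit-high libraries and 471 and 482 RPKM in total pro-B libraries, with 4 of 8 counted members higher and 2 lower. Over all 14 tested, 9 were higher and 3 lower, and 1 was lower without c-Kit-high replicate 2. Of the 14, 5 passed the filter through the c-Kit-high libraries alone. Csf1r, a macrophage gene that missed the expression minimum, was at 1.37 and 0.333 RPKM in c-Kit-high libraries and 0.155 and 0.201 RPKM in total pro-B libraries. The erythroid and megakaryocyte list summed to 104 and 139 RPKM in c-Kit-high libraries and 212 and 221 RPKM in total pro-B libraries. In that list Tfrc, the transferrin receptor of dividing cells, was at 17.2 and 18.2 RPKM in c-Kit-high libraries and 137 and 126 RPKM in total pro-B libraries, and Gata1 was listed at 0 in all but 1 library. Without Tfrc the list summed to 86.6 and 120.4 RPKM in c-Kit-high libraries and 74.97 and 94.4 RPKM in total pro-B libraries. Of 6 tested members Tfrc was the 1 called lower, and the 3 called higher had passed through the c-Kit-high libraries alone, a count of 1 without c-Kit-high replicate 2 or either total pro-B library. The T and NK list summed to 146 and 151 RPKM in c-Kit-high libraries and 255 and 250.5 RPKM in total pro-B libraries. There Thy1, a surface antigen of T cells, was lower by a log2 difference of -2.68 ± 0.44 (SE), and without it the list summed to 124 and 130 RPKM in c-Kit-high libraries and 109 and 113 RPKM in total pro-B libraries. Of 8 counted members 3 were higher and 1 lower, with a median of 0.38. Klrb1c, the NK1.1 antigen, was at 6.12 and 10.2 RPKM in c-Kit-high libraries and 0.0328 and 0.0742 RPKM in total pro-B libraries. Of 9 counted plasma cell genes, 2 were higher and 3 lower. Eosinophil, basophil and mast cell genes were nearly absent but for the eosinophil granule proteins Prg2 and Prg3, Prg3 at 33.9 and 32.1 RPKM in c-Kit-high libraries and 0.543 and 1.74 RPKM in total pro-B libraries.

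Stromal markers ran the other way. The 23 stromal and endothelial genes summed to 142 and 182 RPKM in c-Kit-high libraries and 295 and 400.1 RPKM in total pro-B libraries, and 7 of 9 counted members were lower and 1 higher. Cxcl12, the stromal chemokine that retains B-cell precursors, was at 0.402 and 0.423 RPKM in c-Kit-high libraries and 31.2 and 45.3 RPKM in total pro-B libraries, a log2 difference of -4.77 ± 0.32 (SE; adjusted p = 6.74e-07). Bgn, the matrix proteoglycan biglycan, was at 0.0982 and 2.53 RPKM in c-Kit-high libraries and 60.2 and 89.5 RPKM in total pro-B libraries, a log2 difference of -5.24 ± 0.49 (SE; adjusted p = 2.34e-05). The endothelial gene Cdh5 was at 0.239 and 0.433 RPKM in c-Kit-high libraries and 0.238 and 0.122 RPKM in total pro-B libraries, and the stromal genes Lepr and Dcn were listed at 0 in all of them. In deleted mice the list summed to 660 and 650 RPKM in c-Kit-high libraries and 542 and 398 RPKM in total pro-B libraries. The order of the sums was thus the opposite there, but that of most called members was not. Of 16 tested members, 7 were called lower and 5 higher in deleted c-Kit-high libraries, with a median log2 difference of -0.47. Whether stromal RNA had a part in the lower levels of biosynthesis genes was not tested.

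Replication-dependent histone genes set 1 library apart. Their RNAs normally lack a poly(A) tail, and their 57 gene rows summed to 2085 and 239 RPKM in c-Kit-high libraries and 149.8 and 116 RPKM in total pro-B libraries. The first c-Kit-high library was thus far above the other 3, and among the deleted c-Kit-high libraries the second, whose library number is consecutive with it, was as high. Of 37 counted members 6 were called higher, but over all 46 tested the count was 3 without c-Kit-high replicate 1, 20 without c-Kit-high replicate 2 and 3 without total pro-B replicate 2. These genes are near-identical copies, and no direction is given for them.

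**Figure D4:**
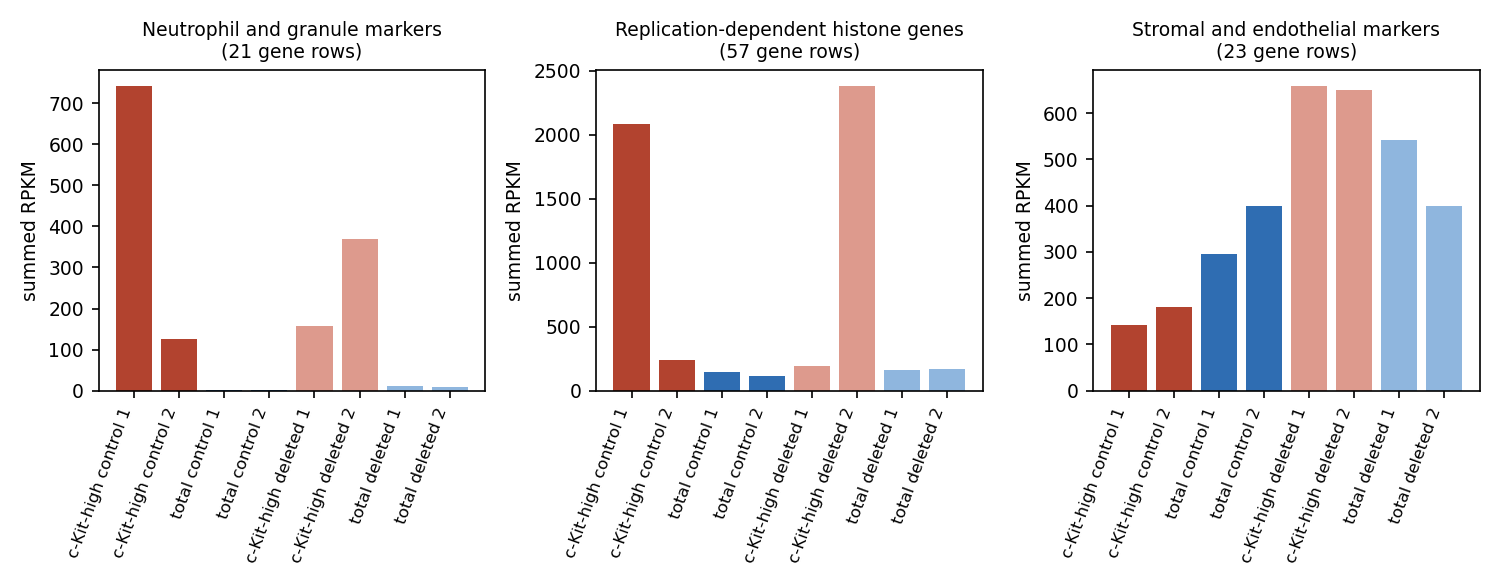
Summed RPKM of the neutrophil (21 gene rows), histone (57) and stromal (23) lists in the c-Kit-high and total pro-B libraries of both genotypes, 2 bars a group, 1 for each library. Neutrophil RNA is seen in every c-Kit-high library, histone RNA stands out in 1 c-Kit-high library of each genotype, and the stromal sum is lowest in the c-Kit-high controls.

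Among single genes outside these lists, several had very large differences. Tubb3, a beta-tubulin best known from neurons, was at 0.521 and 0.250 RPKM in c-Kit-high libraries and 178 and 173 RPKM in total pro-B libraries, a log2 difference of -7.00 ± 0.37 (SE; adjusted p = 3.17e-07). Lta, the cytokine lymphotoxin alpha, was at 1.70 and 0.624 RPKM in c-Kit-high libraries and 122 and 146 RPKM in total pro-B libraries, a log2 difference of -6.01 ± 0.38 (SE; adjusted p = 1.51e-06). The metallothionein Mt1, which binds zinc and copper, was at 9.64 and 11.1 RPKM in c-Kit-high libraries and 356 and 474 RPKM in total pro-B libraries, a log2 difference of -5.18 ± 0.47 (SE; adjusted p = 3.54e-05). All 3 were thus close to background or low in c-Kit-high cells and well expressed in total pro-B cells, and Rag2-null pro-B libraries had 275 and 246 RPKM of Tubb3. On the higher side, Clcf1, a cytokine of the interleukin-6 family that acts on B cells, was at 22.5 and 38.5 RPKM in c-Kit-high libraries and 0.632 and 1.19 RPKM in total pro-B libraries, a log2 difference of 4.01 ± 0.25 (SE; adjusted p = 2.82e-07). Jchain, which joins IgM and IgA polymers, was at 22.2 and 10.9 RPKM in c-Kit-high libraries and 0 and 0.0464 RPKM in total pro-B libraries, a log2 difference of 4.02 ± 0.34 (SE; adjusted p = 3.51e-06). H2-Q6 and H2-Q7, nonclassical class I genes that are near copies of each other and uncertain for that reason, were higher by 5.49 and 5.10 on the log2 scale.

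The same 2 preparations were also made from Ikzf1(fl/-) Cd79a(Cre/+) mice, whose 4 libraries share none with the controls. There 4948 genes (45.5%) were called, 2682 higher (24.6%) and 2266 lower (20.8%). Calls in the same direction in both genotypes numbered 3708, which is 62.8% of the control calls and 74.9% of the deleted calls, and 86 genes were called in opposite directions. Rag1 was at 143 and 80.8 RPKM in deleted c-Kit-high libraries and 0.872 and 0.200 RPKM in deleted total pro-B libraries, a log2 difference of 6.18 (adjusted p = 3.94e-05). Il7r was at 92.6 and 113 RPKM in deleted c-Kit-high libraries and 22.1 and 22.7 RPKM in deleted total pro-B libraries, a log2 difference of 2.14 (adjusted p = 0.000687). Both thus differed between the preparations in either genotype. Of the gene lists, ribosome biogenesis (39 of 41 lower), cholesterol synthesis (29 of 30 lower) and interferon-stimulated genes (23 of 29 higher) counted much as in the controls, now over all tested members. Of the 29 interferon genes, 10 had passed the filter through the c-Kit-high controls alone and so had to be higher there. Among the other 19, 14 were called higher in the controls. DNA replication had 14 of 42 lower. Glycolysis had 12 of 23 lower and 3 higher with a median of -0.57, and 8 of its members passed the test of the difference between genotypes described below.

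Deleted c-Kit-high replicate 1 has a library number consecutive with those of the total pro-B libraries, so the comparison could be repeated within 1 run of numbers. That library against the 2 deleted total pro-B libraries gave 3441 calls (31.6%), 1887 higher (17.3%) and 1554 lower (14.3%), under the assumption that the lone library varies like the others. Of these calls 2700, or 78.5%, had the same direction as in the controls. They are 45.7% of the control calls, and 70 were opposite. The log2 differences were 6.59 for Rag1, 2.00 for Il7r, 3.69 for Irf7, -1.76 for Scd1 and -1.41 for Ncl. Each had the sign it had in the controls, with a smaller size for Il7r, Scd1 and Ncl. With 1 c-Kit-high library, of another genotype, the part of the run in the control differences was not tested. Median log2 differences over all tested members were -1.14 for ribosome biogenesis, -1.44 for cholesterol synthesis and 1.82 for interferon-stimulated genes. Control medians of these lists were -1.31, -1.78 and 1.59. The interferon median in the controls was 1.47 over the 19 genes that had not passed through the c-Kit-high libraries alone. DNA replication genes were at -0.28, against -0.48 in the controls, and mitotic genes at -0.57, against -0.34. Glycolysis was at -0.51, against -1.49 in the controls, and endoplasmic reticulum chaperones were at -0.33, against -0.54. V(D)J and end-joining genes were at -0.07, against 0.19 in the controls, and B-lineage transcription factors at 0.435, against 0.66. Later B-cell genes were at 0.51, against 0.88 in the controls, and NuRD, Polycomb and remodelling subunits at 0.13, against 0.14. Histone genes had a median log2 difference of 0.09 there, against 2.13 over the tested histone genes in the controls.

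**Figure D5:**
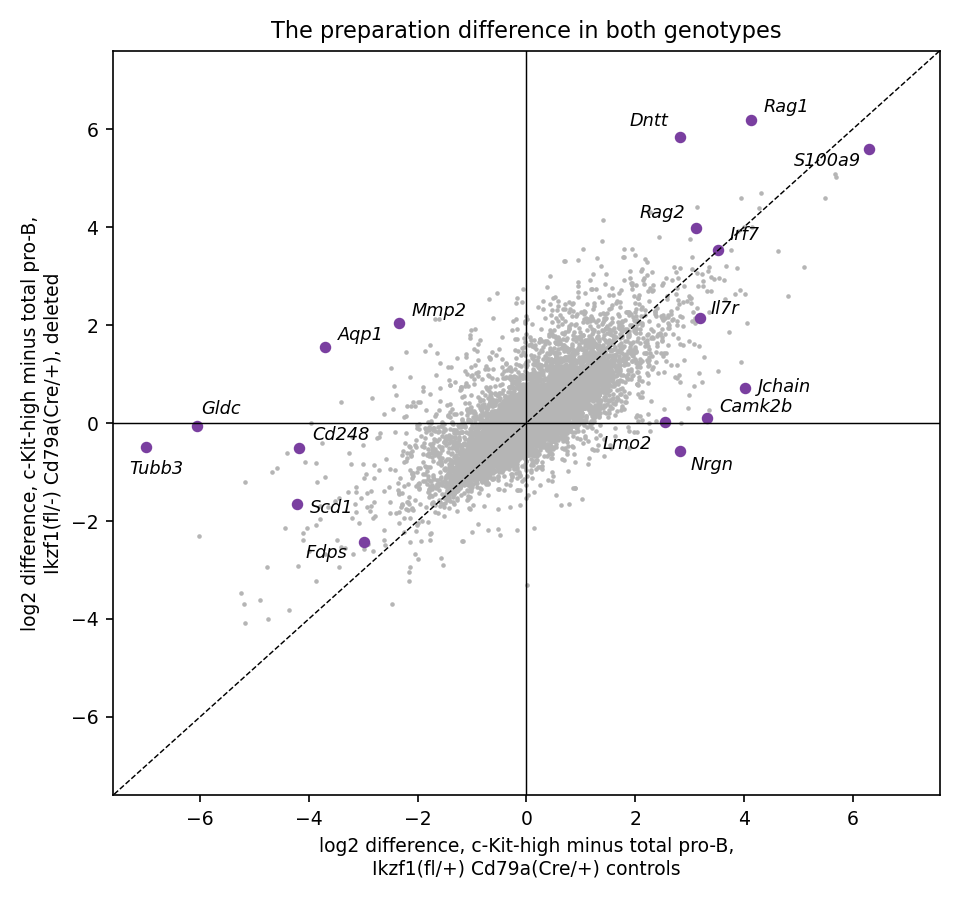
The log2 difference, c-Kit-high minus total pro-B, in deleted cells (vertical axis) against that in control cells (horizontal axis), with 1 grey point for each of the 10884 genes, the dashed line of equal difference and named genes in purple. Rag1, Il7r and Irf7 are higher in both genotypes, Scd1 and Fdps lower in both, and Tubb3 and Gldc lie far to the left but closer to 0 on the vertical axis.

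The difference between the genotypes was itself tested, as the deleted minus the control difference, and 657 genes passed (6.04%), 436 with a positive value (4.01%) and 221 with a negative one (2.03%). This count was 386, 352 and 241 without c-Kit-high control replicate 2, total pro-B control replicate 1 and total pro-B control replicate 2, and 300, 428 and 275 without deleted c-Kit-high replicate 1, deleted c-Kit-high replicate 2 and deleted total pro-B replicate 2. Tubb3 was at 0.804 and 0.0507 RPKM in deleted c-Kit-high libraries and 1.97 and 0.257 RPKM in deleted total pro-B libraries. Its large difference in controls was thus not seen there, and the differences differed by 6.51 ± 0.52 (SE; adjusted p = 0.000127). Tubb3 passed the filter through the total pro-B controls alone, so this p-value is a description only. Lmo2 was at 60.7 and 59.6 RPKM in deleted c-Kit-high libraries and 56.8 and 62.0 RPKM in deleted total pro-B libraries, and the differences differed by -2.53 ± 0.34 (SE; adjusted p = 0.00164).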

How the data were processed

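Per the labels' protocols, poly(A) RNA was purified from column-extracted RNA and sequenced as single-end, strand-specific libraries. The submitters' processing notes name TopHat 1.4.1, HTSeq 0.5.3, DESeq 1.8.3 and the mm9 genome; their filters are not given in the sources used here. Only the RPKM per gene model that the authors deposited were used, with no counts. Of 21025 models, 20662 were matched to a current symbol by RefSeq accession, 190 by symbol alone and 173 were not matched; 110 share a symbol with another model.

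Values of short, low genes fell mostly on whole multiples of 1 read (70.8% to 96% of 24 to 59 values per control library, within 0.1 read), which gave the implied depths. The first c-Kit-high library showed 2 step sizes, so its depth is an average. These depths are estimates and entered no test.

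The log2(RPKM + 1) values were fitted in R 4.3.3 by limma 3.58.1, using its trend and robust options, over the 14 pro-B and pre-B libraries in 7 groups (7 residual degrees of freedom); this scale understates changes of low genes. Tests were two-sided, with Benjamini-Hochberg adjustment over all 10884 genes with at least 1 RPKM in 2 of the 4 control libraries. The deleted comparison, and the interaction between genotypes, came from the same fit. SE is the moderated standard error. The fit was tested on simulated data. The labels do not say that replicates are separate animals, so the p-values reflect the spread of these libraries alone, which may be technical. Of 435 pairs of libraries, 0 held identical values.

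The libraries and gene lists were chosen with earlier results of these data known, and the gene families of the closing section after their values were seen. List counts are descriptions, with no test of their own. Genes were named by a rule: Kit and Ikzf1, the called genes of largest difference (15 at most in each direction), up to 4 called members of each list, some standard B-lineage genes, and up to 5 genes each way for the interaction, of which the text describes those best known. Some of these genes are not reported here. The following fall outside it and were chosen after their values were seen: Ccnd1, Cd3e, Cd8b1, Cdh5, Cish, Csf1r, Csf2rb, Dcn, Ddx58, Elane, Ern1, Fbl, Fcmr, Gapdh, Gata1, Isg15, Lepr, Mpo, Rasgrp1, Syk, Trim30a, Xrcc5 and Xrcc6. Cdkn1a, Cdkn1b, Cdkn1c and Cdkn2c were also named after their values were seen. Alternatives varied the pseudocount, the filter, the scaling, the libraries in the fit and the moderation, and left out each library in turn. Python 3.11.15, pandas 2.3.3, numpy 2.4.6 and matplotlib 3.10.9 made the tables and plots.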

Additional observations from a re-analysis of the deposited data

Results flagged for a closer look

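The difference between c-Kit-high and total pro-B cells was itself different in deleted and control mice, by the limma interaction test, for 657 of 10884 genes. Values are the deleted minus the control log2 difference. Tubb3, Gldc and Mmp2 passed the filter through the total pro-B controls alone, and Jchain through the c-Kit-high controls alone. These genes had to differ in the controls, so their interaction p-values are descriptions only. The largest positive ones among the named genes given here were Tubb3 at 6.51 ± 0.52 (SE; adjusted p = 0.000127) and Gldc at 5.98 ± 0.49 (SE; adjusted p = 7.83e-05). Both were expressed in total pro-B controls and at or near 0 in c-Kit-high controls, while in deleted mice both preparations were low: Gldc was at 0.819 and 0 RPKM in deleted c-Kit-high libraries and 0.684 and 0.188 RPKM in deleted total pro-B libraries.

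Aqp1, a water channel, was at 7.32 and 4.07 RPKM in c-Kit-high controls and 82.6 and 84.3 RPKM in total pro-B controls, but at 26.1 and 16.4 RPKM in deleted c-Kit-high libraries and 9.36 and 4.24 RPKM in deleted total pro-B libraries. Its interaction was 5.26 ± 0.64 (SE; adjusted p = 0.00240), with opposite directions in the genotypes. Mmp2, a matrix gelatinase, was also opposite, at 4.39 ± 0.44 (SE; adjusted p = 0.000221), with 0.499 and 0.850 RPKM in c-Kit-high controls and 5.95 and 9.25 RPKM in total pro-B controls, against 12.9 and 7.05 RPKM in deleted c-Kit-high libraries and 1.402 and 1.71 RPKM in deleted total pro-B libraries.

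Negative interactions were those of Nrgn, a calmodulin-binding protein, at -3.40 ± 0.51 (SE; adjusted p = 0.00582), of Jchain at -3.30 ± 0.49 (SE; adjusted p = 0.00242), of Camk2b, a calmodulin-dependent kinase, at -3.22 ± 0.49 (SE; adjusted p = 0.00332), and of the Fc receptor-like genes Fcrl6 at -3.10 ± 0.51 (SE; adjusted p = 0.00514) and Fcrla at -2.68 ± 0.40 (SE; adjusted p = 0.00332). All 5 were higher in c-Kit-high than in total pro-B controls. In deleted mice Nrgn was at 338 and 503 RPKM in c-Kit-high libraries and 666 and 566 RPKM in total pro-B libraries, and Camk2b at 0.127 and 0.298 RPKM in c-Kit-high libraries and 0 and 0.275 RPKM in total pro-B libraries.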

How the results depend on the processing

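The 5909 calls in controls ranged from 4856 with an RPKM minimum of 5 to 6480 with no filter over the other settings of the test, and numbered 4587 to 5423 with 1 control library left out, 5843 to 5858 with 1 deleted library left out, 5725 after quantile normalization (2747 higher, 2978 lower) and 2151 under the 2-fold rule, which was added after the data were seen. The interaction count of 657 was 350 with the RPKM minimum of 5, fewer genes being tested, and 241 to 846 with 1 library left out. Of 151 named genes, 147 were called, and 137 of these still were without each library; calls of H2bc18, Mycn, Vpreb1, Vpreb2, H1f2, Fos, Fosb, Pmaip1, Car1 and Klf1 were not. Directions turned for 2 genes without a call: Ccnd3 was 0.16 after quantile normalization and -0.25 to 0.02 with a c-Kit-high library left out, and Mki67 was -0.071 to 0.27; the cause was not tested. In a fit over all 30 libraries 31 histone genes were called higher. No paired analysis was possible because replicate numbers in the 2 groups name samples in accession order and pair nothing. Levels near 1 RPKM rest on few reads in the second c-Kit-high library.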

Other observations

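Gene families chosen after their values were seen extend the description. Of 8 tested genes of the CCT chaperonin, which folds actin and tubulin, 8 were lower in c-Kit-high cells, and of 16 cytosolic aminoacyl-tRNA synthetase genes 15 were lower, with medians of -1.15 and -1.03, against 24.7% of all genes called lower. Translation initiation factors had 34 of 53 lower and 4 higher, proteasome subunits 26 of 38 lower and 2 higher, and mitochondrial ribosomal proteins 54 of 75 lower and 1 higher. The proteasome count was 17 lower without c-Kit-high replicate 1. Respiratory chain and ATP synthase genes had 43 of 76 lower, and 33 after quantile normalization. Cytosolic ribosomal proteins, many with processed copies that make their values uncertain, had 38 of 79 lower, but 24 without total pro-B replicate 1, 25 without total pro-B replicate 2 and 28 after quantile normalization.

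Other families were higher. Of 18 counted class I and class II genes of the mouse H2 complex, 16 were higher and 0 lower in c-Kit-high cells, with a median log2 difference of 1.42, against 29.5% of all genes called higher. Limma's unadjusted p under 0.05 gave 16 higher and 0 lower. Gimap genes, GTPases of lymphocyte survival, had 5 of 6 higher. Genes named Zfp, most of them zinc finger factors, had 116 of 226 higher and 6 lower. Over all 244 tested Zfp genes this was 129 higher, and 90 after quantile normalization, with 8 lower, 14 after quantile normalization and 4 without total pro-B replicate 2. Krüppel-like factors had 6 of 10 higher and 2 lower. Over all 13 tested, 9 were higher and 2 lower, with 5 higher without total pro-B replicate 1 and 1 lower without c-Kit-high replicate 1 or total pro-B replicate 2. Of 16 tested collagen genes, 11 passed the filter through the total pro-B libraries alone, and all collagen genes summed to 27.8 and 31.1 RPKM in c-Kit-high libraries and 99.5 and 153 RPKM in total pro-B libraries.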
